A study of Mus musculus with 6 samples.

Results

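The genes described here encode the proteins of the cytosolic ribosome. They were taken as all genes whose symbol is Rps or Rpl followed by a number, with an optional a, x or l ending, together with Rplp0, Rplp1, Rplp2 and Rpsa. By this rule 88 of the 47643 annotated genes were members, 36 named for the small subunit and 52 for the large subunit. By symbol and gene annotation, 77 of them are the canonical ribosomal protein genes (31 small, 46 large), called core members below. A further 6 are paralogs (Rps27l, Rpl3l, Rpl7l1, Rpl10l, Rpl22l1 and Rpl39l) and 5 are annotated pseudogenes (Rps3a2, Rps3a3, Rps4l, Rps12l1 and Rpl6l). All 77 core members had enough counts to be tested, as did 84 members in all. Rpl3l, Rpl10l, Rps12l1 and Rps3a3 did not.

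Regulatory T cells had been sorted from mouse bone marrow as CD4+ cells with a FOXP3-GFP reporter, which cells of both groups carried. The myeloma group was 3 libraries from mice injected with Vk*MYC, named for a multiple myeloma model (a cancer of plasma cells) in which MYC is driven by immunoglobulin kappa regulatory elements. The other group was 3 libraries from control mice. The labels used here name no strain, sex or age and no treatment of the control mice. The myeloma libraries are numbered 3, 4 and 5 and the control libraries 1, 3 and 5, and the series design counts 3 marrows per group.

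A ribosome joins a small subunit, which reads the mRNA, to a large subunit, which links amino acids. Each subunit holds most of its proteins in a single copy. The genes are highly transcribed, though their mRNA levels need not match. Their mRNAs begin with a run of pyrimidines, the 5' TOP motif, through which the kinase complex mTORC1 controls their translation more than their amount. T cells raise ribosome production when they are activated and divide. RNA levels, the quantity measured here, do not report translation.

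Total expected counts ran from 10240620 to 13314631 per library, and members took 5.92% to 7.96% of them. All 7 regulatory T cell markers examined were detected in every library, Foxp3 at 991 to 1068 CPM (counts scaled to a common library size by TMM) in myeloma and at 992 to 1248 CPM in control libraries. The 11 plasma cell markers gave sums of 1479, 1920 and 2720 CPM over the myeloma libraries (replicates 3, 4 and 5 in turn). Control libraries gave 1230 to 1362 CPM. Igkc contributed 96.0, 408 and 919 CPM of the myeloma sums and 29.7 to 61.7 CPM of the control sums. Ighm was the largest part in every library, at 1098 to 1253 CPM in myeloma and 996 to 1105 CPM in control libraries. Ighm overlapped between groups, as did Tnfrsf13b (45.9 to 52.0 CPM in myeloma, 49.9 to 56.8 in control libraries). Tnfrsf17 was at 0 in every control library and at 0.42 to 0.71 CPM, near 0, in myeloma. The 8 erythroid markers summed to 3865 to 4793 CPM in myeloma and to 6737 to 14756 CPM in control libraries, without overlap. The 8 myeloid markers (112, 356 and 486 CPM in myeloma, 65.2 to 178 in control libraries) and the 8 B cell markers (27.7 to 69.3 CPM in myeloma, 44.5 to 282 in control libraries) overlapped between groups. NK and CD8 T cell markers summed to at most 11.3 and 22.4 CPM. The part of these other cells in the results below was not tested. In bulk RNA, fewer cells of a type and less RNA per cell cannot be told apart.

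Nearly every ribosomal protein gene was slightly higher in myeloma than in control regulatory T cells, and few of these differences passed the test. Of 84 members tested, 81 had a log2 fold change above 0 (myeloma minus control, log2 of CPM), against 52.0% of all 13235 genes tested. Among genes of 400 to 1000 bases, the length of most members, the shares were 97% of members and 76.3% of other genes. The median over the 84 members was 0.26 (quartiles 0.17 and 0.33), a 1.20-fold higher level, against 0.02 over all genes tested. In edgeR's quasi-likelihood test, adjusted by Benjamini-Hochberg over all genes tested, 5 members rose at the threshold of 0.05 and 0 fell (0 also at an unadjusted p under 0.05 and by DESeq2). That is 5.95% of the members, and 6.33% of all genes tested were called higher and 4.69% lower. At an unadjusted p under 0.05, 33 members were higher, 39.3% of those tested, against 15.3% of all genes tested. Among other genes of 400 to 1000 bases that share was 34%. Every myeloma value lay above every control value for 14 members, 16.7% of those tested, against 17.3% of all genes tested. Among genes of 400 to 1000 bases that share was 18.2% of members and 35.3% of other genes.

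The 5 members that rose were Rps2, Rps12 and Rps27l of the small subunit and Rpl13 and Rpl41 of the large subunit. Rps2 encodes a core protein near the mRNA entry site. Its level was 1104, 1213 and 1182 CPM in the myeloma libraries (in the order of replicates 3, 4 and 5, as throughout) and 776, 864 and 818 CPM in the control libraries (replicates 1, 3 and 5). Its lowest myeloma library was thus above its highest control library, and the log2 fold change was 0.51 (SE 0.09, edgeR adjusted p = 0.0102). Rps12, a protein of the beak of the small subunit, stood at 765, 811 and 676 CPM in myeloma and at 514, 519 and 416 CPM in control libraries. Its groups did not overlap, although replicate 5 was the lowest library of each group (log2 fold change 0.64, SE 0.12, edgeR adjusted p = 0.0113). Rps27l encodes a close relative of Rps27 that is known as a p53 target. It was far less abundant, at 31.5, 34.0 and 34.1 CPM in myeloma and 23.3, 20.8 and 22.5 CPM in control libraries (log2 fold change 0.58, SE 0.11, edgeR adjusted p = 0.0133). The spread within each of its groups was small beside the gap between them.

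Rpl13 encodes a protein of the large subunit. It stood at 1224, 1408 and 1147 CPM in myeloma and at 715, 776 and 959 CPM in control libraries, with control replicate 5 closest to the myeloma values (log2 fold change 0.63, SE 0.13, edgeR adjusted p = 0.0197). Rpl41, the smallest and most basic ribosomal peptide, stood at 709, 741 and 620 CPM in myeloma and at 493, 462 and 429 CPM in control libraries (log2 fold change 0.58, SE 0.10, edgeR adjusted p = 0.00936). These 5 differences were 1.42-fold to 1.55-fold. The 5 genes are annotated as protein coding and lie on 4 chromosomes (GRCm38), Rps2 at chr17:24718116-24721929, Rps12 at chr10:23785183-23787275, Rpl41 at chr10:128548114-128549305, Rps27l at chr9:66946086-66949516 and Rpl13 at chr8:123102350-123105244. The adjusted p of the next members, chosen here after their values were seen, was 0.0510 for Rpl22, 0.0539 for Rpl24, 0.0633 for Rpl28 and 0.0743 for Rpl7a, with log2 fold changes of 0.39, 0.38, 0.28 and 0.33.

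**Figure D1:**
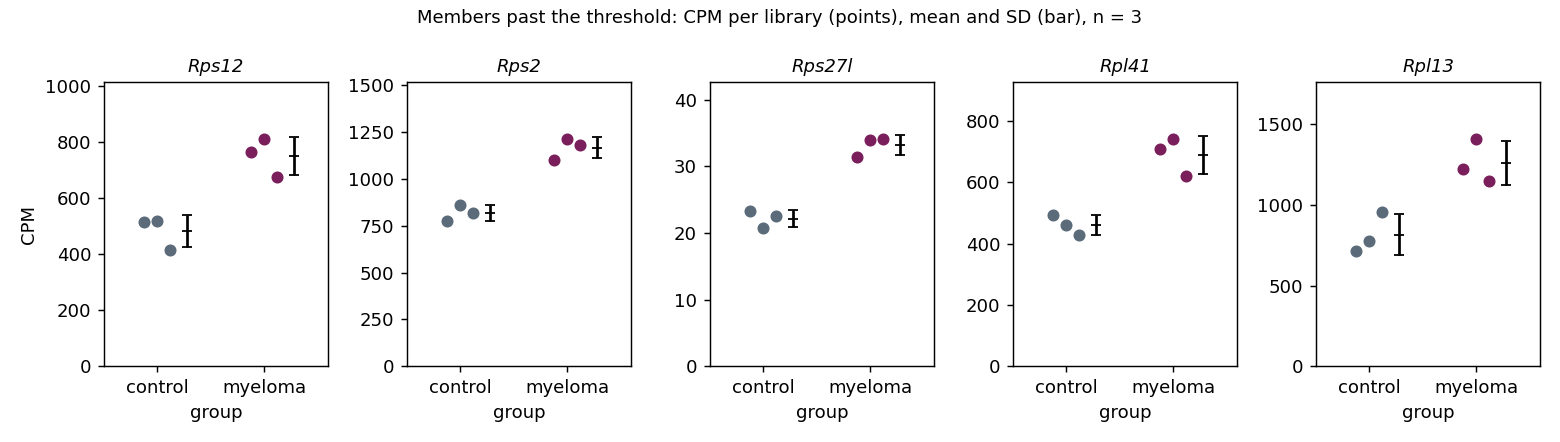
CPM of the 5 members that passed the test, 1 panel per gene with its own axis from 0; points are libraries (control replicates 1, 3 and 5, then myeloma replicates 3, 4 and 5, left to right) and bars are the mean and SD (n = 3). In each panel the 3 myeloma points lie above the 3 control points.

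Start regions of these 5 genes are shown as a description, since these are the members that rose. Whether the start regions bear on the members' levels was not tested. Each stretch is 150 bases, 130 before and 20 from the RefSeq transcript start (GRCm38.p6), written along the gene's strand. Capitals mark the ETS core GGAAGT or its reverse complement, and the cAMP response element TGACGTCA. In Rpl13 the cAMP response element and a reversed ETS core share 1 base.
Rps2, chr17:24719933-24720082, plus strand: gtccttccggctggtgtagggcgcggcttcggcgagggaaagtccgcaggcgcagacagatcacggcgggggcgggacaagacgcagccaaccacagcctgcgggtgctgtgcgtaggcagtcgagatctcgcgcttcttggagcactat
Rps12, chr10:23787190-23787339, minus strand: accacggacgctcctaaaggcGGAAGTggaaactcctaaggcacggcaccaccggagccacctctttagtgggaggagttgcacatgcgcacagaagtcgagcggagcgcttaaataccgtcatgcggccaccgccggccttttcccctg
Rps27l, chr9:66945956-66946105, plus strand: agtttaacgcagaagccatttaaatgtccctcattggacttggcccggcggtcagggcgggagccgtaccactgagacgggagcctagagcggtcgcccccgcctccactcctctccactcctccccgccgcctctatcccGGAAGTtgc
Rpl13, chr8:123102220-123102369, plus strand: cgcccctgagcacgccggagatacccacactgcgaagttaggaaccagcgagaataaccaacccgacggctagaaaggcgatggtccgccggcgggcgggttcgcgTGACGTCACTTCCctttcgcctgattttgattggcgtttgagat
Rpl41, chr10:128549149-128549298, minus strand: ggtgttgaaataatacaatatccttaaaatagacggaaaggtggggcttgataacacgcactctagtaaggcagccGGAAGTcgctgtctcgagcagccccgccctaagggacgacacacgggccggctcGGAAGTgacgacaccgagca
Of the 83 members that are not pseudogenes, 63 matched a RefSeq start window, taken as 250 bases before to 50 after the most upstream start. A search of both strands of these windows for 7 motifs gave the following shares, each beside the share over all 27025 windows of the same length. Those windows were not matched to the members' windows in GC content or expression. GGAAGT was in 29 of the 63 member windows (46%, against 24.1%), among them those of Rpl13, Rpl41, Rps12 and Rps27l and not that of Rps2. The Sp1 box GGGCGG, which can overlap neighbouring GC-rich matches, was in 38 (60.3%, against 35.9%). The YY1 core AAGATGGC was in 6 (9.52%, against 2.87%) and TGACGTCA in 5 (7.94%, against 1.85%). TATAAA was in 7 (11.1%, against 14.2%), CCAAT in 19 (30.2%, against 38%) and CACGTG, an E-box bound by MYC, in 5 (7.94%, against 7.24%). TATAAA was found in the window of Rps2 alone among the 5 called members, outside the stretch printed. A match is a description of letters and not a binding site.

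The subunits had close medians. The median log2 fold change was 0.26 over the 34 small subunit members tested and 0.26 over the 50 large subunit members, with 3 and 2 called higher. Summed over all members, small subunit CPM over large subunit CPM was 0.795, 0.793 and 0.776 in the myeloma libraries and 0.787, 0.809 and 0.789 in the control libraries. The groups overlapped, and their means of 0.788 ± 0.0108 and 0.795 ± 0.0119 (SD, n = 3 each) lay closer than 1 SD. With 3 against 3 libraries an exact two-sided permutation test cannot give a p under 0.1, so none is given.

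Libraries of each group spread widely in their summed level. All members together reached 74649, 80945 and 63024 CPM in the myeloma libraries and 59870, 67451 and 57210 CPM in the control libraries. Myeloma replicate 5 lay below control replicate 3, so the groups overlapped, with means of 72873 ± 9092 and 61510 ± 5314 CPM (SD, n = 3 each), a 1.18-fold difference. The core members kept nearly the same order of libraries. Among the myeloma libraries replicate 4 was highest for 74 of 77 core members and replicate 5 lowest for 73, and among the controls replicate 3 was highest for 75. As a share of TPM, the authors' value scaled for length and library total, members took 21.3%, 22.3% and 16.1% in myeloma and 19.1%, 20.3% and 18.8% in control libraries, with myeloma replicate 5 the lowest of all 6.

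**Figure D2:**
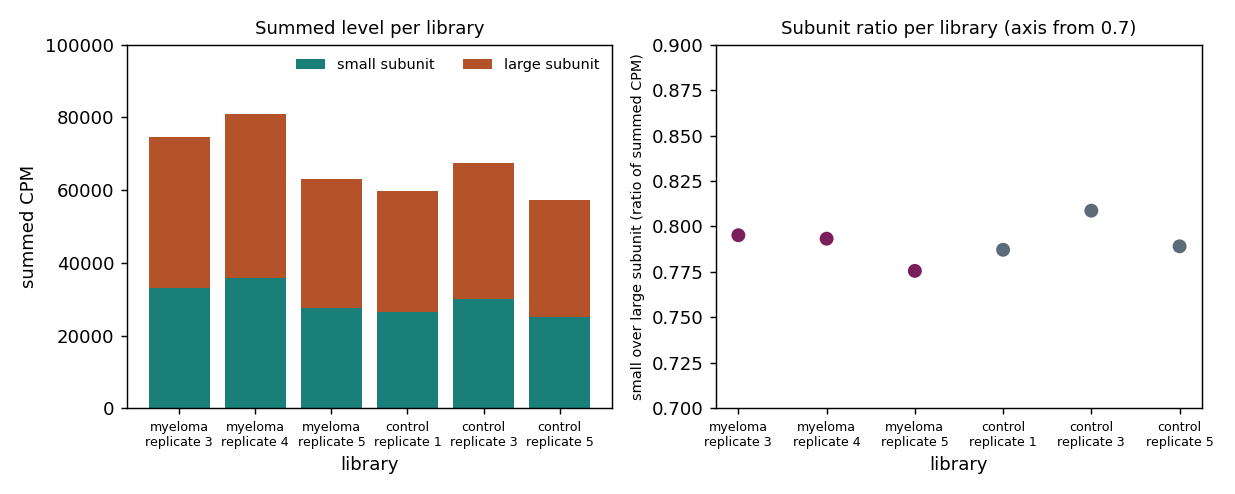
Left, summed CPM of all members in each library, stacked by subunit; right, summed small over summed large subunit CPM, on an axis that starts at 0.7. The summed level of myeloma replicate 5 (63024 CPM) lies below that of control replicate 3 (67451 CPM), and the subunit ratio stays between 0.776 and 0.809.

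The count of members called turned on 1 library more than on the scaling. Without myeloma replicate 5, which also had the highest plasma and myeloid marker sums, 30 of 85 members were called higher against 6.15% of all genes tested, and the medians were 0.35 for each subunit. Without myeloma replicate 4, 2 members were called (Rpl41 and Rps2), against 2.89% of all genes tested, and without control replicate 3, 3 members were called (Rpl41, Rps2 and Rps12), against 2.42%. Rpl41 and Rps2 were called whichever library was left out. Rps12 was not called without myeloma replicate 4 and Rps27l without that library or control replicate 3. Rpl13 was not called without myeloma replicate 3 or 4 or control replicate 1 or 3. DESeq2 called 26 members higher, the 5 among them, against 8.21% of all genes tested. No filter on low counts gave 18 members called (against 5.03%), limma-voom 8 (against 5.98%) and robust dispersion 7 (against 6.45%), each with the 5 among them. Scaling without ribosomal protein genes, or without immunoglobulin, haemoglobin and mitochondrial genome genes, left the same 5 members called.

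Transcript length moved with the fold change, among members and among other genes. Core members are short, 345 to 1861 bases in the tables' length column with a median of 694, where other genes tested had a median of 2361 bases. Over other genes tested the log2 fold change fell by 0.15 for each doubling of length, and over core members it fell by 0.10 (small 0.04, large 0.15; Pearson r of -0.41 over 77 genes that share all libraries, a description). Other genes of 400 to 600 bases had a median log2 fold change of 0.37 and the 24 members of that length 0.30. At 600 to 800 bases the medians were 0.33 and 0.27, at 800 to 1000 bases 0.29 and 0.26, and at 1000 to 1500 bases 0.19 and 0.15. The order was the other way at up to 400 bases, where 182 other genes had a median of 0.24 and 5 members 0.27, so the shortest other genes did not follow the fall with length. It was also the other way for the single members at 1500 to 2000 bases (0.22, against 0.10) and at 2000 to 3000 bases (0.18, against -0.01). Other genes over 5000 bases had a median of -0.20.

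Other genes of the members' length were called higher too. Of 66 members of 400 to 1000 bases, 7.58% were called higher, and of 1403 other genes of that length 16.1% were. At an unadjusted p under 0.05, 45.5% of these members and 34% of these other genes were higher. Of the 49 other genes of that length at least as abundant as the lowest core member (a mean of 237 CPM), 36.7% were called higher. Their median log2 fold change was 0.44, against 0.27 for the 66 members. Of these 49 genes, 87.8% were above 0 and 71.4% were higher at an unadjusted p under 0.05. These classes were drawn after the data were seen.

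**Figure D3:**
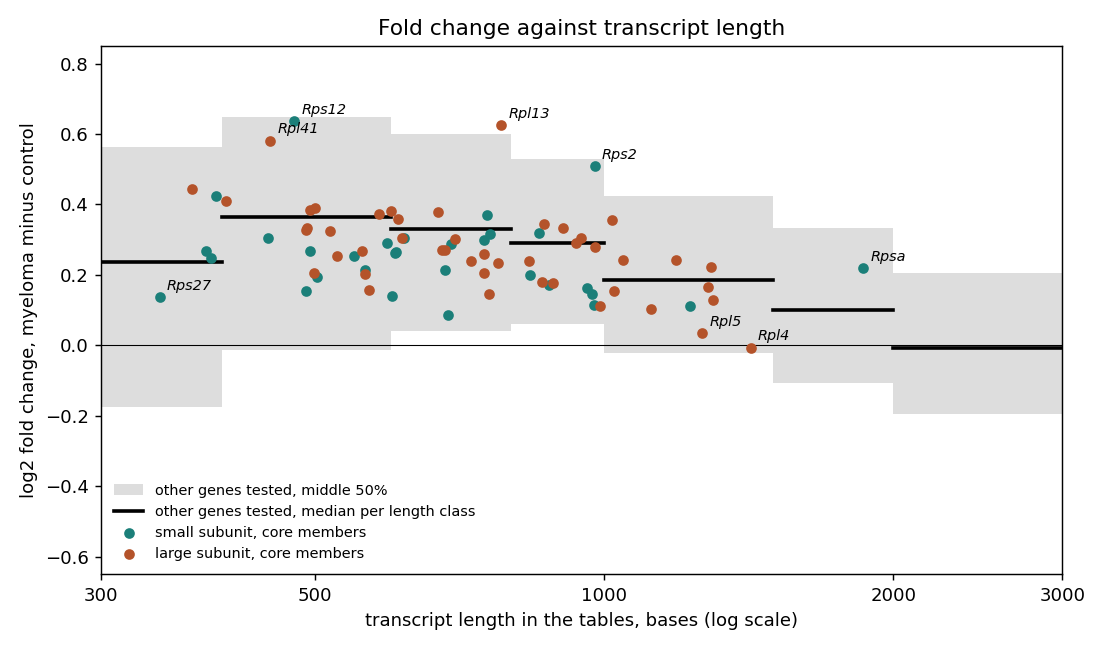
Log2 fold change (myeloma minus control) of each core member against its transcript length in bases (log scale), with the median (line) and middle 50% (grey) of other genes tested per length class. Most core members lie within the grey band, and the medians of other genes fall from 0.37 at 400 to 600 bases to -0.01 at 2000 to 3000 bases.

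With length as a covariate, the members' median was near 0 and none passed the test. A spline of log2 length (4 degrees of freedom), fitted to all genes in each library and used as an offset, takes out whatever follows length in that library, whatever its source. The offset at the members' lengths had a median of 0.12, 0.18 and 0.14 (log2) in myeloma and of -0.13, -0.09 and -0.22 in control libraries, so it separated the groups. With it the members' median log2 fold change was -0.03, with 37 above and 47 below 0 (46.9% of all genes tested were above), and the medians by subunit were -0.03 (small) and -0.0023 (large). No member was called by edgeR (0 of 84, against 3.24% of all genes tested higher and 2.0% lower), and 5 were higher and 0 lower at an unadjusted p under 0.05. With the spline fitted without the members, 0 were called as well, against 3.23%. The 5 members kept a positive sign, from 0.24 for Rps2 (adjusted p = 0.154) to 0.34 for Rps12 (adjusted p = 0.0759), with Rpl41 and Rps27l at 0.28 and Rpl13 at 0.33. With the offset and without myeloma replicate 5, Rpl41 and Rps12 were called, against 3.14% of all genes tested. RSEM's effective-length offset, which follows its fragment length and isoform estimates in each library, left the same 5 called. Why length and fold change moved together was not tested, and an effect on short transcripts in the cells cannot be told apart here from one in the libraries.

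**Figure D4:**
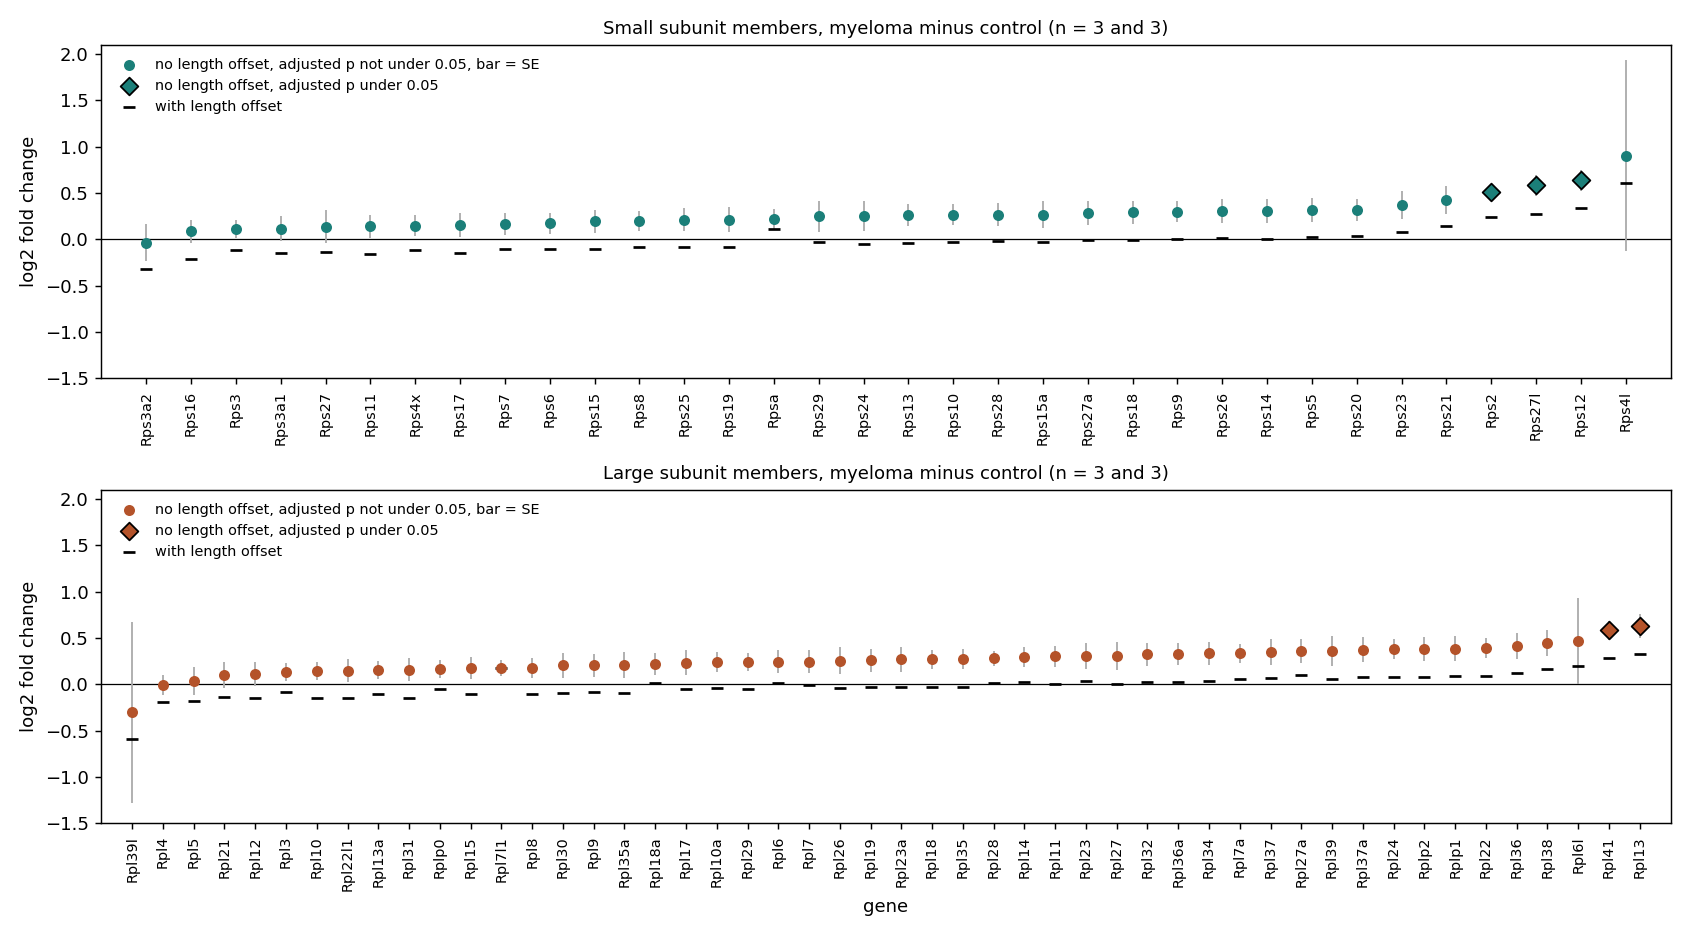
Log2 fold change of each member tested, ordered within its subunit, with its SE as a bar; diamonds passed the test at adjusted p under 0.05 and dashes give the value with the length offset. Without the offset 81 of 84 points lie above 0, and with it 37 of 84 dashes do.

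For most neighbours in the order of levels, the ranges of mean ± SD over libraries overlapped. On the TPM scale, which allows comparison between genes, core members ran from 777 (Rpl5) to 10984 (Rps27), a 14.1-fold range, with a median of 2867 for the small and 1931 for the large subunit. The highest after Rps27 were Rplp1 at 7112, Rps24 at 4794 and Rps29 at 4355. Rps27 was at 10691 ± 2703 TPM in myeloma and 11278 ± 1199 in control libraries, and Rplp1 at 7504 ± 1181 and 6719 ± 521 (SD, n = 3 each). Of the 76 pairs of neighbours in this order, the ranges of mean ± SD overlapped for 75 in the myeloma and 58 in the control libraries. These SDs include shifts that the genes of a library shared, so an overlap does not show that 2 neighbours had equal levels. The ranges of Rps27 and Rplp1 overlapped in myeloma, yet Rps27 was higher in each myeloma library (12145, 12356 and 7572 against 7895, 8440 and 6178 TPM). Other pairs were not compared within libraries. Among the large subunit Rplp1, Rpl32 (3788) and Rpl13a (3697) were highest. The lowest core members, read from this order after the values were seen, were Rpl14 at 1018, Rpl37 at 851 and Rpl5 at 777, and in the small subunit Rps25 at 1186. Level fell with length (Pearson r of log2 values -0.56 over the 77 genes, a description). Over core members the SD of log2 TPM was 0.70, where the median SD of a member's log2 CPM between libraries was 0.20 in myeloma and 0.14 in control libraries.

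**Figure D5:**
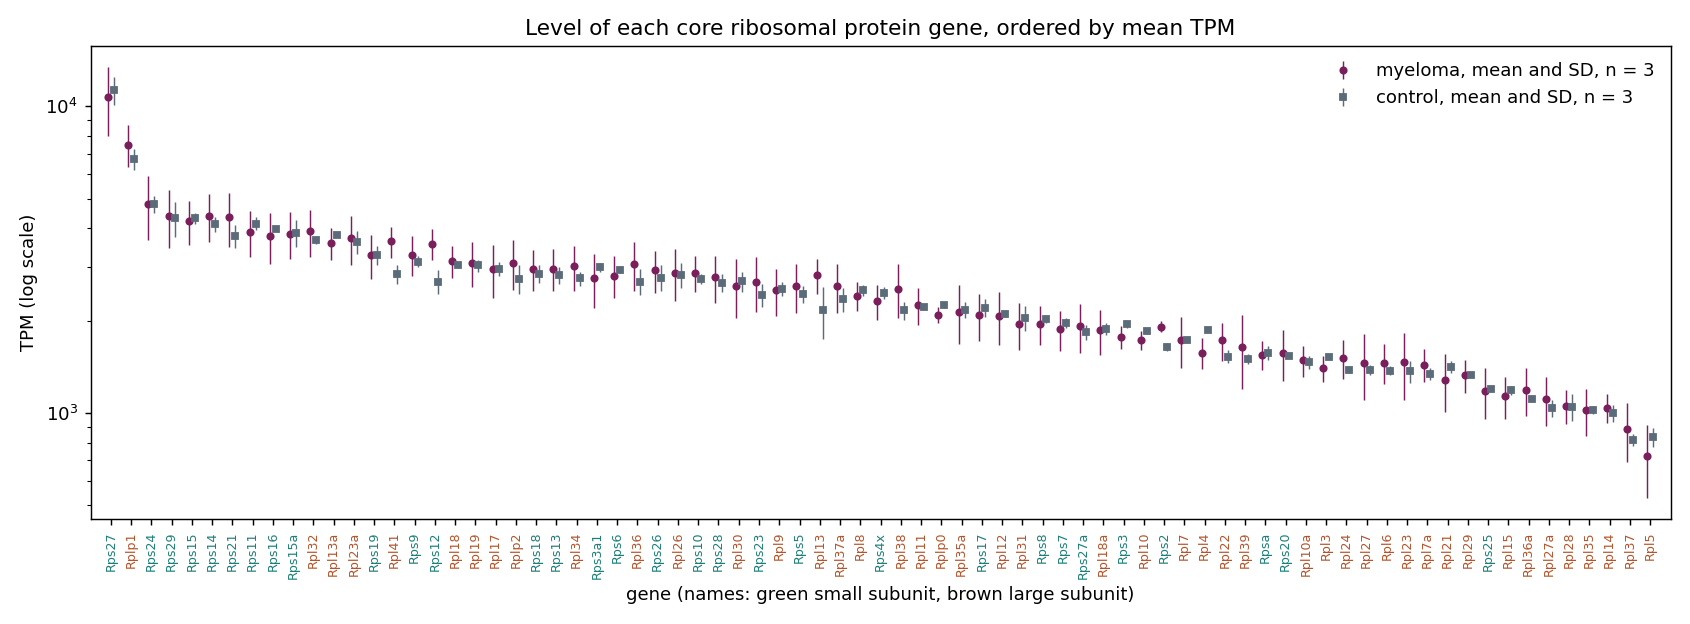
Mean TPM (log scale) and SD (n = 3) of each of the 77 core members in myeloma and control libraries, ordered by the mean over all 6. Rps27 (10984) and Rplp1 (7112) stand above the rest, and the group bars of most genes overlap.

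None of the members named next for their roles passed edgeR's test, while DESeq2 called Rplp1, Rplp2, Rpl11 and Rpl38 higher, as did edgeR without myeloma replicate 5. The stalk proteins, which recruit elongation factors, had log2 fold changes of 0.17 (Rplp0), 0.39 (Rplp1) and 0.38 (Rplp2), with edgeR adjusted p of 0.301, 0.0938 and 0.0979. Rplp1 stood at 1738, 1891 and 1445 CPM in myeloma and at 1279, 1463 and 1142 CPM in control libraries, so myeloma replicate 5 fell within the control range. Rpl5 and Rpl11 bind the p53 inhibitor MDM2. Rpl5 stood at 659, 667 and 446 CPM in myeloma and 589, 589 and 551 CPM in control libraries (log2 fold change 0.04, SE 0.15), while Rpl11 had 0.30 (SE 0.12, edgeR adjusted p = 0.131). Myeloma replicate 5 was the lowest of all 6 libraries for Rpl5. Rps6, whose protein is phosphorylated downstream of mTORC1, had 0.17 (SE 0.11), Rps3, at the mRNA entry channel, 0.11 (SE 0.10), and Rpsa, also known as a laminin receptor, 0.22 (SE 0.11) with groups that did not overlap. Rps14 and Rps19, both tied to inherited or acquired anaemia, had 0.30 and 0.21, and Rps27a, made as a ubiquitin fusion, 0.29. Rpl10, which joins the large subunit late, had 0.14, Rpl13a 0.15, and Rpl38, needed for mouse skeletal patterning, 0.44 (SE 0.14, edgeR adjusted p = 0.0792). Rpl4, chosen after its value was seen, had the lowest fold change of the core members, at -0.01 (SE 0.11), with 1391, 1650 and 1414 CPM in myeloma and 1448, 1612 and 1413 CPM in control libraries.

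Paralogs were minor beside their parents, apart from Rpl22l1. Rpl22, whose loss impairs alpha-beta T cell development, and Rpl22l1 are alternative proteins of the same ribosomal position. Rpl22l1 made up 19.6%, 18.1% and 19.2% of the pair's TPM in myeloma and 22.7%, 24.9% and 21.6% in control libraries, a pattern noticed after its values were seen and not tested. The shares did not overlap, and on their own neither gene passed edgeR's test. Rpl22 had a log2 fold change of 0.39 (SE 0.11, edgeR adjusted p = 0.0510) and was called higher by DESeq2, by limma-voom, with robust dispersion, with no filter, with pseudogene rows added and without myeloma replicate 5. Rpl22l1 had 0.15 (SE 0.12, edgeR adjusted p = 0.478) and was called under none of these. Rps27l took 0.799% to 1.81% of its pair with Rps27, and Rpl7l1 1.71% to 2.14% of its pair with Rpl7 (log2 fold change 0.18, SE 0.09, edgeR adjusted p = 0.229). Rpl39l took at most 0.356% of its pair (log2 fold change -0.30, SE 0.98). Rpl10l, a retrogene of male germ cells, had 0 counts in every library and Rpl3l, a muscle form, 2 counts in all. The pseudogene Rps4l was at 0, 6.55 and 11.0 CPM in myeloma and 2.42, 2.32 and 4.57 CPM in control libraries, so its log2 fold change of 0.90 had an SE of 1.03. Rps3a2 had -0.04 (SE 0.20) and Rpl6l 0.47 (SE 0.46).

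Processed pseudogenes make the counts of some members uncertain, since reads that fit several genes were divided by a model. Of the counts of Rpl27 and the rows named as its pseudogenes, 30.9% were in the pseudogene rows. That share was 12.8% for Rpl39, 8.72% for Rpl36a and 4.89% for Rps12, and no row was named as a pseudogene of Rpl41. With these rows added to their parent gene, 6 members were called by edgeR, the 5 above and Rpl22 (adjusted p = 0.0492), against 6.4% of all genes tested.

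Other genes of the translation machinery gave a mixed picture. Among ribosomal proteins and partners outside the naming rule, Fau (log2 fold change 0.44, edgeR adjusted p = 0.0390) and Rpl36al (0.52, edgeR adjusted p = 0.0132) rose, and Rack1 (0.16) did not pass. Neither Fau nor Rpl36al was called with the length offset (0.14 and 0.21). When 1 library was left out, Fau was called only without myeloma replicate 5, and Rpl36al was not called without myeloma replicate 3 or 4 or control replicate 3. Of 78 mitochondrial ribosomal proteins, which build the separate ribosome of mitochondria, 16 rose and 0 fell. Over all genes tested 6.33% were called higher and 4.69% lower. The median of the 78 was 0.32, or 0.10 with the length offset. Mrpl52 was the smallest in p (0.85, edgeR adjusted p = 0.00461), at 56.1, 53.4 and 46.1 CPM in myeloma and 25.7, 32.2 and 28.7 CPM in control libraries. Mrpl52 also passed with the length offset (0.55, adjusted p = 0.0325). Mrps24 (0.74), Mrps34 (0.78) and Mrps21 (0.60) followed. None of these 3 was called without myeloma replicate 4, nor was Mrps34 without myeloma replicate 3 or Mrps21 without control replicate 3. With the offset 1 of the 78 mitochondrial ribosomal protein genes was called, against 3.24% of all genes tested called higher. Without the offset, Mrpl52 was called whichever library was left out. Against the background of 6.33% called higher, none of 17 elongation factors and other mRNAs with a TOP start was called in either direction by edgeR (median 0.12). At an unadjusted p under 0.05, 4 of them were higher and 2 lower, and DESeq2 called 2 higher and 2 lower.

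The lists that follow held 1 or 2 called genes in each direction, and 6.33% of all genes tested were called higher and 4.69% lower, so nothing is read from these counts about a list. Among regulators, Eif4ebp1, the translation repressor that mTORC1 inactivates, was at 11.3, 15.1 and 19.4 CPM in myeloma and 7.18, 7.64 and 8.28 CPM in control libraries (log2 fold change 0.98, edgeR adjusted p = 0.0308). It was the single gene that rose of 21 in the mTORC1 list, whose median was -0.15, and Rptor, the mTORC1 scaffold, and Sesn3, an mTORC1 inhibitor, fell by 0.34 and 0.41 on the log2 scale (edgeR adjusted p = 0.0448 and 0.0252). Eif2ak2, the interferon-inducible kinase PKR, rose (1.08, edgeR adjusted p = 0.0031) and Gcn1l1 fell by 0.43 (edgeR adjusted p = 0.0264) among 9 genes of ribosome rescue and quality control. Of 40 ribosome biogenesis genes Polr1c (0.51) and Ebna1bp2 (0.35) rose and Nop56 fell by 0.36, with a median of 0.01. Of 26 initiation factors Eif3i (0.30) rose and Eif4g2 fell by 0.32, with a median of 0.12. Of 7 snoRNA host genes, which carry the small RNAs that guide rRNA modification in their introns, Zfas1 rose (0.50, edgeR adjusted p = 0.0173) and Snhg8 fell by 0.52 (edgeR adjusted p = 0.0499). These host genes are 483 (Snhg6) to 864 (Snhg1) bases long, within the range of the core members. Their median was -0.11, and -0.40 with the length offset. With that offset Snhg8, Snhg1 and Snhg12 were lower by edgeR (-0.82, -0.80 and -0.58, adjusted p = 0.0092, 0.0414 and 0.0370). Eif2ak2 (1.13, adjusted p = 0.00136) and Nop56 (-0.57, adjusted p = 0.0108) also passed edgeR's test with the length offset. So did Eif1 of the initiation factors (-0.61, adjusted p = 0.0141) and Eif4ebp2 of the mTORC1 list (-0.42, adjusted p = 0.0486), both lower. Neither was called by edgeR without the offset (adjusted p = 0.0740 and 0.104). The offset ended the calls of Eif4ebp1 (0.71), Polr1c (0.26), Zfas1 (0.20), Ebna1bp2 (0.13), Eif3i (0.06), Eif4g2 (-0.31), Gcn1l1 (-0.27), Rptor (-0.20) and Sesn3 (-0.20), with edgeR adjusted p from 0.103 (Eif4g2) to 0.702 (Eif3i). Of the genes in these lists called without the offset, Eif2ak2 alone was called whichever library was left out. Snhg8, Eif3i, Eif4g2, Rptor and Ebna1bp2 were not called when any 1 library was left out. Zfas1, Polr1c and Gcn1l1 were called in 3 of these 6 fits, Sesn3 and Nop56 in 2 and Eif4ebp1 in 1, and all 6 genes lost their call without myeloma replicate 4 and without control replicate 3.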

How the data were processed

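Per the labels' protocols, RNA was extracted with the RNeasy Micro kit and made into NEBNext Ultra RNA libraries. STAR, RSEM, Picard, DESeq2 and build mm10 are named in the submitters' processing notes, without versions in the sources used here. The deposited tables hold RSEM expected counts, TPM, FPKM (not used) and lengths per gene and library, per the file headers. RSEM divides reads that fit several genes, so paralogs and pseudogenes are uncertain, and without strand an antisense gene's reads cannot be separated from those of a member. Symbols are upper case in the tables and were taken from the reference for 47224 of 47643 genes.

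Expected counts were rounded, filtered with filterByExpr (a count of 10 at least and a total of 15 at least), TMM-scaled and put through edgeR 4.0.16 (glmQLFit, glmQLFTest; R 4.3.3), myeloma minus control, over all 13235 genes tested with Benjamini-Hochberg adjustment. The biological coefficient of variation was 0.202. The test was tested on simulated data. Alternatives used DESeq2 1.42.0, limma 3.58.1 (voom), other scalings and filters, length offsets, a replicate block and each library left out. The series design counts 3 marrows per group, but no label ties a library to its own animal, so p-values rest on the spread between the 6 libraries alone, which may be technical. The SE is the log2 fold change divided by the square root of F. Positions follow GENCODE release M21 (GRCm38) and start windows RefSeq.

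Members, lists and the naming rule were chosen with earlier results of these data known. The rule names called members, the 3 highest and lowest in TPM and the 3 largest changes per subunit, paralogs with their parents, members of known role and up to 4 called genes per list. The split into core members, paralogs and pseudogenes, the 7 motifs and 3 alternatives (2 length offsets and the added pseudogenes) were chosen after the data were seen. 1 result for a gene that is no member is not reported here.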

Additional observations from a re-analysis of the deposited data

How the results depend on the processing

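The count of 5 members called higher was 18 with no filter (of 86), 8 with limma-voom, 26 with DESeq2, 0 with the length offset, 0 with that offset fitted without ribosomal protein genes, 2 with the offset and without myeloma replicate 5, and 2 (Rpl41 and Rps12) with the replicate number as a block, which called 2.74% of all genes higher and in which Fau was not called (adjusted p = 0.128). It ran from 2 to 30 when 1 library was left out. Robust dispersion gave 7 and the added pseudogenes 6, and all other scalings and filters and the effective-length offset gave the same 5 genes. The cause of these changes was not tested. The log2 ratio of summed CPM, 0.24, was -0.026 with either length offset and 0.082 with the offset and without myeloma replicate 5. The median log2 fold change, small subunit, was -0.033 with the length offset and -0.033 with the offset fitted without ribosomal protein genes. The median log2 fold change, large subunit, was -0.0023 and -0.00301. The replicate numbers 3 and 5 occur in both groups, and whether same-numbered libraries were paired cannot be told from the numbers. Residuals of same-numbered libraries correlated at 0.0295 and 0.0974, the latter the highest of all pairs across the groups. The lowest pair was at -0.0812. Residuals within groups of 3 libraries are too few to decide on a pairing. Depth limits Rpl39l, Rpl6l and Rps4l, whose counts were few.

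With the length offset the sign turned for Rpl10 (-0.15), Rpl13a (-0.10), Rpl22l1 (-0.15), Rpl3 (-0.082), Rpl5 (-0.18), Rpl7 (-0.00901 and -0.0098), Rplp0 (-0.048 and -0.049), Rps19 (-0.087), Rps24 (-0.046), Rps27 (-0.14), Rps27a (-0.0089 and -0.0095), Rps29 (-0.033), Rps3 (-0.11), Rps3a1 (-0.15), Rps4x (-0.12) and Rps6 (-0.11) (a second value is that of the offset fitted without ribosomal protein genes, where it differs), none of which was called. With the offset and without myeloma replicate 5 it turned for Rpl10 (-0.11), Rpl13a (-0.036), Rpl22l1 (-0.062), Rpl3 (-0.027), Rplp0 (-0.048), Rps3 (-0.053), Rps3a1 (-0.016), Rps4l (-0.25), Rps4x (-0.0401) and Rps6 (-0.0056). With the replicate block it turned for Rpl5 (-0.072), Rps27 (-0.066), Rps3a1 (-0.028) and Rps4l (-0.68), with limma-voom for Rps4l (-1.21) and with library sizes alone for Rpl5 (-0.034). The sign also turned when 1 library was left out for Rpl39l (-1.52 to 0.13), Rpl5 (-0.062 to 0.20) and Rps3a2 (-0.19 to 0.13), given as the lowest and highest value over the 6 libraries.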
